A study of Homo sapiens with 46 samples.

Results

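The comparison described here asks how the distribution of each gene's RNA between cytoplasm and nucleus differed between mesoderm cells and the human pluripotent stem cells (hPSC) they were made from. For each gene, counts were summed over its transcripts, the log2 ratio of cytoplasm to nucleus was taken in each cell type, and the hPSC value was subtracted from the mesoderm value. This difference is called the ratio change below, and a positive value means that the gene stood further towards the cytoplasm in mesoderm. It rests on 12 of the 46 libraries of the series, with 3 libraries in each of 4 groups: hPSC cytoplasm, hPSC nucleus, mesoderm cytoplasm and mesoderm nucleus.

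An mRNA is made in the nucleus, processed and exported, so its share in each fraction depends on its rates of synthesis, export and decay. In the cytoplasm some mRNAs are translated on free ribosomes, while those for membrane and secreted proteins are translated at the endoplasmic reticulum, whose outer part is continuous with the nuclear envelope. In a detergent lysis, what the pellet of nuclei keeps (endoplasmic reticulum, mitochondria, cytoskeleton) is counted as nucleus.

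All groups came from the H1 line, an established human embryonic stem cell line, and hPSC were its undifferentiated cells. Mesoderm was obtained from H1 in VEGF and BMP4 at 100 ng/ml each and bFGF at 10 ng/ml, with activin A at 100 ng/ml for the first 24 hours. Endoderm, used for comparison, was obtained from H1 in activin A at 100 ng/ml with WNT3A, and ectoderm in knockout serum replacement (KOSR) with the inhibitors A83-01, PNU-74654 and dorsomorphin. The 3 lineages were collected after 5 days. Cytoplasmic RNA came from an NP-40 lysate spun over sucrose, and nuclear RNA from a portion of the pelleted nuclei, both before the nuclei were split further. Sequencing was done on an Illumina NovaSeq after library construction with the NEBNext Ultra chemistry. The labels do not say whether the replicates were separate cultures, so the p-values measure the spread between these libraries. The series' design text names actinomycin D, an inhibitor of transcription, which no label of these libraries mentions.

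Library totals ran from 7178789 to 17143491 counts. The 12 pairs of replicate libraries differed by more than counting error (lowest chi-squared per degree of freedom 5.755). There were 15115 Ensembl genes in the hPSC table and 15004 in that of mesoderm. Both held 12482, of which 12306 passed the filter on low counts and were tested, so a gene switched off in either cell type is not covered. In hPSC cytoplasm, replicates 2 and 3 had 9.36% and 7.87% of their counts on transcripts with no Ensembl gene, against 0.91% in replicate 1.

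Markers matched the hPSC label more fully than the mesoderm label. All 17 pluripotency genes examined were listed in hPSC, where they summed to 10860 to 12170 CPM in cytoplasm (CPM is a count rescaled to one library size). In mesoderm 12 of them were listed, at 3468 to 3640 CPM, without SOX2, NANOG, TDGF1, PRDM14 and LINC-ROR. Of 27 mesoderm markers, 15 were listed in mesoderm, at a summed 915.4 to 961.4 CPM in cytoplasm, against 37.03 to 41.6 CPM in hPSC for the 8 listed there. In nucleus the sums were 999.5 to 1217 CPM in mesoderm and 403.5 to 473.2 in hPSC, where KDR alone averaged 426.1. The mesoderm sum was carried by BMP4, HAPLN1, HAND1, MSX2 and TBX3, with means of 212.5, 201.8, 131.9, 119.5 and 72.5 CPM in cytoplasm. TBXT averaged 0.13 CPM there, TBX6 3.90, GATA6 4.41 and PDGFRA 2.98. MIXL1, EOMES, MESP1, KDR, TWIST1 and 7 other mesoderm markers were not listed in mesoderm.

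Of 9 markers of trophoblast and amnion, 7 were listed in mesoderm, GATA3, KRT7, CDX2, TFAP2A, CGA, GABRP and VTCN1, at 693.6 to 757.4 CPM in cytoplasm, while hPSC listed 3 at 28.26 to 34.34 CPM. The mesoderm sum was carried by GABRP, TFAP2A and GATA3, with means of 376.2, 168.2 and 123.2 CPM in cytoplasm. VTCN1 averaged 28.43 CPM there, CGA 1.065 and CDX2 0.5521. KRT7 was level between the cell types, at 27.39 CPM in mesoderm cytoplasm and 27.32 in hPSC cytoplasm. None of the 8 definitive endoderm markers was listed in either table. Of 8 neuroectoderm markers, OTX2, ZIC2 and NES were listed in hPSC, and OTX2, ZIC1 and NES in mesoderm. These unlike sets summed to 454.9 to 475 CPM in hPSC cytoplasm, where ZIC2 averaged 113.7, and to 234.7 to 255.9 in mesoderm cytoplasm. In nucleus the order was the reverse, with 572.5 to 594.3 CPM in hPSC and 1261 to 1586 in mesoderm, mostly from NES. In bulk RNA, fewer cells of a type and less RNA per cell cannot be told apart, and the part of other cell types in the ratio changes was not tested.

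By median ratio change, mitochondrial RNA separated the cell types more than any other gene list examined. Mitochondria carry their own genome, and its transcripts stay inside the organelle. They made up 0.515% ± 0.109 (SD, n = 3) of the counts in hPSC cytoplasm and 13.9% ± 1.26 (SD, n = 3) in hPSC nucleus. In mesoderm the order was reversed, with 6.79% ± 0.848 (SD, n = 3) in cytoplasm and 1.26% ± 0.133 (SD, n = 3) in nucleus. Endoderm and ectoderm resembled hPSC in this order, with means of 0.436% and 1.29% in cytoplasm and 11.5% and 9.50% in nucleus.

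**Figure D1:**
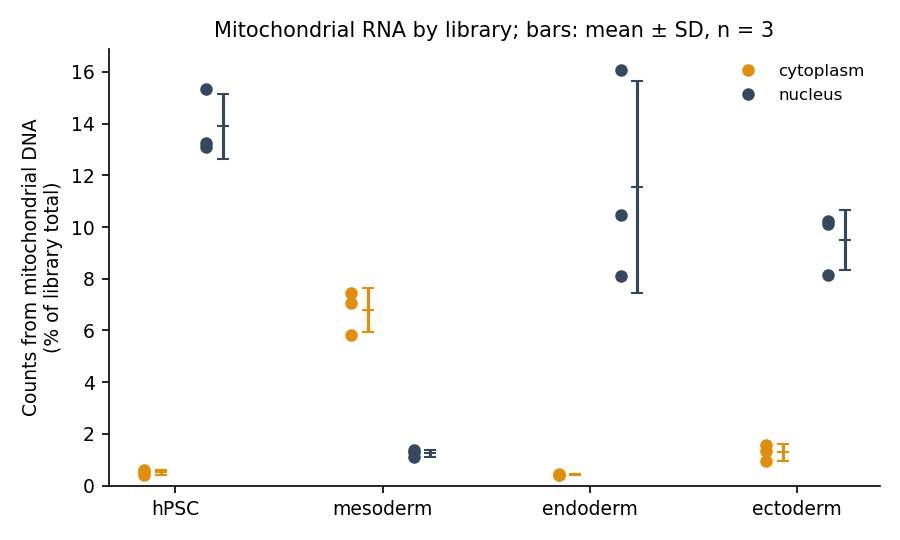
Percent of counts from mitochondrial DNA genes in each cytoplasm and nucleus library of the 4 cell types, with points for libraries and lines for the mean of 3. In mesoderm the share is higher in cytoplasm than in nucleus, and in the other cell types it is lower.

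All 13 mitochondrially encoded mRNAs, which specify subunits of the respiratory chain and ATP synthase, were called with a higher ratio in mesoderm, with a median ratio change of 8.09. MT-CO1, a core subunit of cytochrome c oxidase, stood at 2076, 1192 and 1543 CPM in hPSC cytoplasm and at 45800, 47740 and 56340 CPM in hPSC nucleus. In mesoderm it stood at 17340, 20380 and 21020 CPM in cytoplasm and at 3603, 3642 and 3968 CPM in nucleus. The nucleus libraries were the high ones in hPSC and the cytoplasm libraries in mesoderm, with no overlap, and the ratio change was 7.35 ± 0.32 (SE; edgeR quasi-likelihood F test, Benjamini-Hochberg adjusted p = 2.17e-10).

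The span among these mRNAs ran from 6.64 for MT-ND5, a subunit of complex I, to 9.93. MT-ND5 had a log2 ratio near 0 in mesoderm (0.14), while MT-ATP6, an ATP synthase subunit, reached 2.93 there and -6.47 in hPSC. Both mitochondrial rRNAs, the RNA core of the organelle's ribosome, were also called, with MT-RNR2 at a ratio change of 7.21.

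Over all 12306 genes, edgeR's test at an adjusted p under 0.05 called 4684 (38.1%) in the ratio change, of which 3200 (26.0%) were higher and 1484 (12.1%) lower in mesoderm. The median ratio change of all genes tested was 0.19, and the middle 90% of genes lay between -0.96 and 1.40. Of the calls, 1747 were at least 2-fold. The split between higher and lower depends on how libraries are scaled: 68.3% of calls were higher with TMM factors, 61.2% with upper-quartile factors, 56.0% with DESeq2's size factors, 50.9% with the mitochondrial genes left out, 30.8% with total counts alone (no TMM factors) and 5.41% on the authors' TPM, where the all-gene median was -0.59. For each gene list the difference of its median from the all-gene median is therefore given. Counts with total counts alone and on the authors' TPM (plus 1) are added for lists whose split moved. Their backgrounds over all genes are 1372 higher and 3076 lower of 12306 with total counts alone. On the authors' TPM they are 343 higher and 6002 lower of 12154, and without the mitochondrial genes 2262 and 2181 of 12296.

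Within each cell type the fractions were far apart. In mesoderm 9155 genes (74.4%) differed between cytoplasm and nucleus, and in hPSC 8614 (70.0%). Of 7140 genes called in both, 6808 (95.4%) lay on the same side, 3361 in cytoplasm and 3447 in nucleus. Across genes, which are not independent replicates, the log2 ratios of the cell types had a Pearson r of 0.765, and 0.785 without mitochondrial genes. Among the 3200 higher calls 958 were on the cytoplasm side and 1045 on the nucleus side in both cell types, 166 crossed from nucleus to cytoplasm, and 1031 were not called on a side in at least 1 cell type. Among the 1484 lower calls these numbers were 200, 277, 166 (from cytoplasm to nucleus) and 841.

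**Figure D2:**
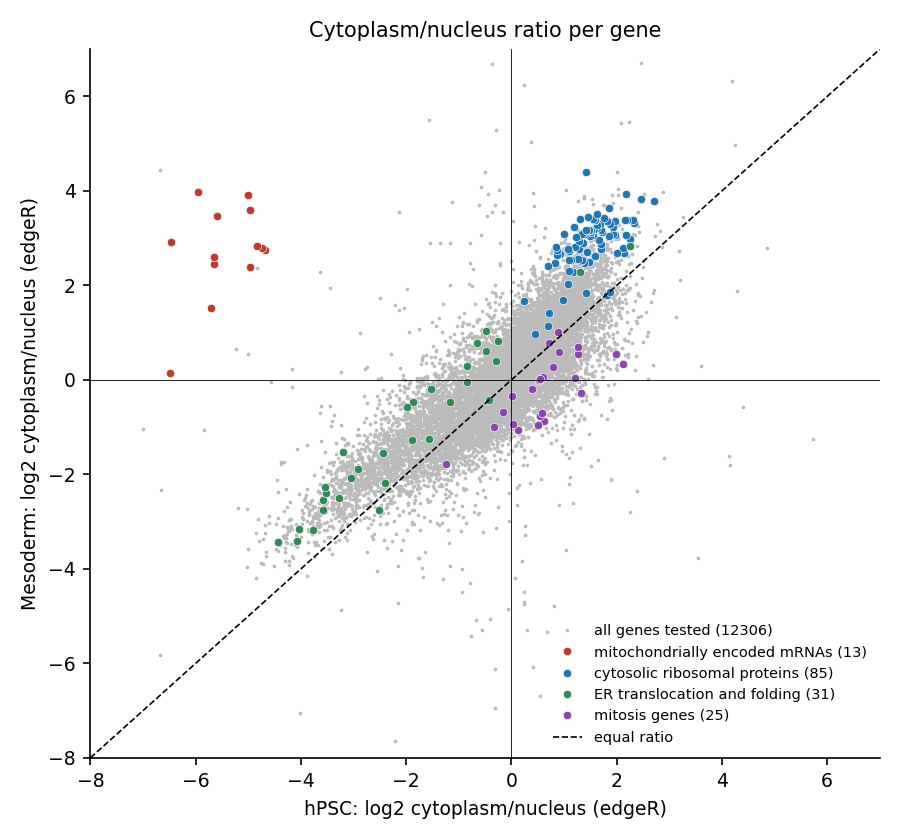
Log2 cytoplasm/nucleus ratio of each gene tested in hPSC (horizontal) against mesoderm (vertical). Most genes follow the diagonal, with r = 0.765 over 12306 genes, and the mitochondrial genes stand apart at low hPSC and high mesoderm ratios.

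Cytosolic ribosomal protein mRNAs stood further towards the cytoplasm in mesoderm than in hPSC. They encode the protein part of the ribosome and are among the shortest and most abundant mRNAs of a cell. Of 85 tested, 72 were called higher, against a background of 26.0%, and the other 13 were not called. Their median ratio change was 1.47, which is 1.28 above the all-gene median and stayed 1.21 to 1.32 above it under each alternative fit of all libraries. Scaled by total counts, 60 were called higher, and on the authors' TPM 31. Their mRNAs lay on the cytoplasm side in both cell types, with a median log2 ratio of 3.05 in mesoderm and 1.48 in hPSC.

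The summed level of the list shows which fraction differed. In cytoplasm it was 199300, 123500 and 108800 CPM in hPSC and 107000, 138000 and 131000 CPM in mesoderm, which overlap. In nucleus it was 64190, 45600 and 53390 CPM in hPSC and 16510, 21990 and 16320 CPM in mesoderm, with every mesoderm library lower. RPLP0, a protein of the ribosomal stalk, followed the same pattern. It had 6115, 4787 and 4262 CPM in hPSC cytoplasm and 4302, 4417 and 5077 in mesoderm cytoplasm. It had 2236, 1568 and 1993 CPM in hPSC nucleus and 493.9, 607.7 and 466.3 in mesoderm nucleus, for a ratio change of 1.75 ± 0.25 (SE).

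The largest ratio change in the list was that of RPS29, a small-subunit protein, at 2.97 ± 0.71 (SE). Its cytoplasm libraries spread widely, with 577.1, 291.7 and 189.8 CPM in hPSC and 128.9, 763.2 and 200.5 CPM in mesoderm. Its nucleus libraries did not overlap, at 140.8, 115.1 and 136.9 CPM in hPSC and 19.16, 15.8 and 16.61 CPM in mesoderm. The RNA gene RN7SL1 (chr14:49586580-49586878) lies inside RPS29 on the other strand, and the strand of the counting is not stated. Whether both genes share reads was not tested, so the value of RPS29 is uncertain. RPL32 changed by 2.01 and RPS3 by 1.45. RPS26 (-0.01) and RPL6 (0.44) were among those not called, and RPS26 took the value 0.51 without hPSC cytoplasm replicate 1. That library held the highest ribosomal protein sum, and without it 84 of the 85 were called.

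The start sites of these genes are shown because a pyrimidine tract there is the known feature of mRNAs of the translation machinery. Each window covers 15 bases before and 15 bases from the RefSeq transcription start (GRCh38.p14), on the gene's strand, and capitals mark the run CTTTC or CTTTTC that was searched for. A single start per gene was used and other starts were not searched, so a window without the run does not show that the mRNA lacks it. The RPS29 window overlaps LRR1, a gene on the other strand. The first 5 windows hold the run, and those of RPS29, RPL32 and CENPE, a gene of the mitosis list, do not:
RPLP1 (chr15:69452803-69452832, + strand): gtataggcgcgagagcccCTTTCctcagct
RPL9 (chr4:39458908-39458937, - strand): gtacgtaatgacgacagacgttCTTTCttt
RPLP2 (chr11:809952-809981, + strand): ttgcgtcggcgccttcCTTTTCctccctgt
RPL18 (chr19:48619164-48619193, - strand): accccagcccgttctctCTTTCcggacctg
RPS13 (chr11:17077653-17077682, - strand): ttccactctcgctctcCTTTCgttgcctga
RPS29 (chr14:49598696-49598725, - strand): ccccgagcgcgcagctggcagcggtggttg
RPL32 (chr3:12841551-12841580, - strand): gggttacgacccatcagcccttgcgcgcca
CENPE (chr4:103198329-103198358, - strand): gtcctggccattttcctgggaccagttcag

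Of 68 ribosomal protein genes with a window in the RefSeq table, 35 (51.5%) held the run on the gene's strand and 2.94% on the other strand. It was found in 4.78% of the 9573 tested genes with a window, in 5.30% of all windows of the table, and in 8 of 51 genes of translation factors. The ratio change did not follow it within the list: the median was 1.45 with the run and 1.40 without. Outside the list, 423 genes held it, with a median of 0.29 against 0.17 for those without. A match describes these letters at a single start per gene only, and 17 ribosomal protein genes had no window.

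The genes with the largest rises by the naming rule included 6 processed pseudogenes of ribosomal protein genes and 1 of PPIA, led by RPL18AP3 at 4.66 ± 0.69 (SE) and RPLP0P9 at 4.32 ± 0.69 (SE). RPLP0P9 had 5.752, 8.301 and 8.047 CPM in hPSC cytoplasm and 16.92, 44.57 and 19.91 CPM in mesoderm cytoplasm. Such copies are near-identical to their parent mRNAs, so their reads may belong to the parents and their values are uncertain. RPL18AP3 (chr12:104265309-104265836) also lies inside TXNRD1 on the same strand. In mesoderm nucleus it had 0.3017, 0.6637 and 0.191 CPM, a mean of 3.667 counts, close to the naming rule's floor of 3. Its hPSC nucleus libraries spread widely, at 40.69, 11.45 and 23.78 CPM. PPIAP22 (2.77) was not called on the authors' TPM. The remaining copies by the naming rule were RPL39P3 at 4.25, RPL13P12 at 3.94, RPS3AP6 at 3.64 and RPL3P4 at 2.74.

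The rest of the translation apparatus moved less. Among 67 initiation and elongation factors, 26 (38.8%) were higher and 5 (7.46%) lower, beside backgrounds of 26.0% and 12.1%. Their median was 0.09 above that of all genes. Without TMM factors 15 were higher and 17 lower, and on the authors' TPM 2 and 31. The lower ones were 9 with the mitochondrial genes left out, and 3 without hPSC cytoplasm replicate 2, hPSC nucleus replicate 2 or 3, mesoderm cytoplasm replicate 2 or mesoderm nucleus replicate 2. EEF1A1 and EEF1G, which deliver aminoacyl-tRNA to the ribosome or serve the factor that does, rose by 1.27 and 1.57. EIF3A and EIF4G1, large scaffold proteins of initiation, fell by 0.95 and 0.76 on the log2 scale. Of 77 mitochondrial ribosomal proteins, which are encoded in the nucleus, 17 (22.1%) were higher and 8 (10.4%) lower, close to the backgrounds. Their median was 0.04 above the all-gene one. Without hPSC cytoplasm replicate 1, 34 were higher, and without mesoderm cytoplasm replicate 1, 5 were lower. With total counts alone 5 were higher and 15 lower. On the authors' TPM, where 6002 of 12154 genes were lower, 35 of these proteins were lower and the rest not called.

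Subunits of the respiratory chain encoded in the nucleus were higher in 31 of 77 cases (40.3%) and lower in 1 (1.3%). The backgrounds are 26.0% and 12.1%, and the list's median was 0.53 above the all-gene one. Scaled by total counts, 18 were higher and 8 lower, and on the authors' TPM 8 and 16. COX6A1, a subunit of cytochrome c oxidase, had 183.7, 114.8 and 100.3 CPM in hPSC cytoplasm and 392.6, 435.7 and 468.1 in hPSC nucleus. Its mesoderm levels were 76.18, 95.38 and 103.1 CPM in cytoplasm and 60.8, 74.87 and 62.73 in nucleus. It was the hPSC nucleus libraries that stood high for COX6A1, and its ratio change of 2.18 ± 0.26 (SE) was the largest of the list. COX6A1 was counted on 2 transcripts in hPSC and 1 in mesoderm. Most of the list lay on the cytoplasm side, with 67 of 77 called there in hPSC and 72 in mesoderm, against 4 and 3 on the nucleus side. The list's median log2 ratio was 1.05 in hPSC and 1.79 in mesoderm. This list's count depended on single libraries: 53 were higher without hPSC cytoplasm replicate 1, 20 without hPSC cytoplasm replicate 2 or mesoderm cytoplasm replicate 2, 17 without mesoderm nucleus replicate 1 and 16 without hPSC nucleus replicate 1. It was also 16 with the mitochondrial genes left out of the fit.

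By their medians, lists of genes for membrane and secreted proteins lay on the nucleus side in both cell types, and less so in mesoderm. The first encodes the endoplasmic reticulum's own machinery for translocation, signal-peptide cleavage and folding. Of 31 such genes 26 were called higher (background 26.0%) and the other 5 were not called, with a median ratio change of 0.98, which is 0.79 above that of all genes. Their median log2 ratio was -1.26 in mesoderm and -1.98 in hPSC, and 7 were called on the cytoplasm side in mesoderm and 2 in hPSC. Without TMM factors 15 were higher and 1 lower, and on the authors' TPM 3 and 4.

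DDOST, a subunit of the complex that attaches sugar chains to new proteins, had 97.66, 95.35 and 97.87 CPM in hPSC cytoplasm and 806.5, 873.5 and 1002 in hPSC nucleus. The mesoderm values were 143.8, 139.8 and 139.5 CPM in cytoplasm and 405.1, 387.1 and 420.5 in nucleus. Both fractions moved, up in cytoplasm and down in nucleus, without overlap, and the ratio change was 1.69 ± 0.15 (SE). SEC11A, the catalytic subunit of signal peptidase, changed by 1.45 and crossed sides, with a log2 ratio of -0.66 in hPSC and 0.78 in mesoderm. The signal recognition particle receptor subunit SRPRB changed by 1.41, the chaperone CANX by 1.26 and RPN1 by 1.13. HSP90B1, the reticulum's HSP90, was not called at -0.23.

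KDELR1 (chr19:48382570-48391553), the receptor that returns escaped proteins to the reticulum, followed RPS29 and the pseudogenes among the largest rises by the naming rule. It had 92.16, 83.8 and 91.06 CPM in hPSC cytoplasm and 495.7, 443.9 and 553.4 in hPSC nucleus. In mesoderm it had 204.2, 194.3 and 225.3 CPM in cytoplasm and 187.5, 196.7 and 221.4 in nucleus. The fractions were far apart in hPSC and overlapped in mesoderm, with log2 ratios of -2.48 and 0.04 and a ratio change of 2.53 ± 0.16 (SE). PPDPF at 2.51, the protocadherin PCDHAC2 at 2.47 and the membrane protein IGSF1 at 2.47 completed the largest rises, and PCDHAC2 was not called on shared Ensembl transcripts. RN7SL1, the RNA of the signal recognition particle, lay on the cytoplasm side in both, with a ratio change of 2.14 ± 0.76 (SE). Its gene lies inside RPS29 on the other strand, so both values may hold shared reads. RN7SL1 lost its call on leaving out any of 7 single libraries, and with total counts, DESeq2, the authors' TPM, shared transcripts, the fit of 24 libraries or the mitochondrial genes left out.

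Transporters of the SLC families, which sit in the plasma membrane and organelles, showed the same direction in 99 of 146 genes (67.8%, background 26.0%), with 1 lower. Their median ratio change was 0.77, and 0.58 above that of all genes. With total counts alone 50 were higher and 5 lower, and on the authors' TPM 9 and 22. SLC31A1, a copper importer, had 30.8, 40.13 and 41.75 CPM in hPSC cytoplasm and 113.4, 103.9 and 135.4 in hPSC nucleus, against 50.31, 46.53 and 42.45 CPM in mesoderm cytoplasm and 41.64, 46.46 and 46.02 in mesoderm nucleus. Its ratio change was 1.70 ± 0.18 (SE), and that of the zinc transporter SLC39A9 was also 1.70. The gene that was lower was SLC22A23, at -0.55, whose call was lost on leaving out any of 6 single libraries.

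Cell adhesion and matrix genes lay far on the nucleus side in both cell types. Integrins, cadherins and protocadherins were higher in 21 of 46 genes (45.65%) and lower in 1, ITGA7 (-0.64), beside backgrounds of 26.0% and 12.1%. Their median log2 ratios were -2.71 in mesoderm and -3.53 in hPSC, with a median ratio change 0.53 above the all-gene one. Scaled by total counts, 15 were higher and 2 lower, and on the authors' TPM 1 and 13. CDH1, the cadherin of epithelia and pluripotent cells, changed by 1.41, while ITGB1, the common beta integrin, had 0.04 and was not called. Matrix proteins were higher in 26 of 53 genes (49.1%) and lower in 3 (5.66%), with median log2 ratios of -3.27 in mesoderm and -3.79 in hPSC. The laminin chains LAMB1 and LAMC1 changed by 1.62 and 1.39, and the proteoglycan VCAN by -1.19. Without TMM factors 11 matrix genes were higher and 5 lower, and on the authors' TPM 1 and 27. On TPM plus 1 with no filter the matrix median was 0.13 below the all-gene one, where it was 0.41 above it in counts.

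Genes of cholesterol synthesis moved in both directions, with 11 of 23 (47.8%) higher and 8 (34.8%) lower, beside backgrounds of 26.0% and 12.1%. Their median was 0.20 above the all-gene one. With total counts alone 4 were higher and 9 lower, and on the authors' TPM 1 and 13. Those higher included enzymes and regulators embedded in the reticulum membrane: TM7SF2 at 1.50, the desaturase SCD at 1.23 and the transcription factor precursor SREBF2 at 0.94. Those lower included soluble enzymes of the early pathway, HMGCS1 at -1.13, IDI1 at -0.84 and FDPS at -0.65, and also the membrane-bound FDFT1 at -0.81. HMGCS1, which makes HMG-CoA, had 73.75, 94.27 and 94.16 CPM in hPSC cytoplasm and 60.72, 61.66 and 61.78 in hPSC nucleus. In mesoderm it was higher in both fractions, at 331.5, 327.1 and 297.6 CPM in cytoplasm and 452.9, 580.2 and 437 in nucleus. The grouping by enzyme location was made after these values were seen. The count of higher genes fell to 7 without hPSC nucleus replicate 3, mesoderm cytoplasm replicate 3 or mesoderm nucleus replicate 1, and to 6 without the mitochondrial genes.

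**Figure D3:**
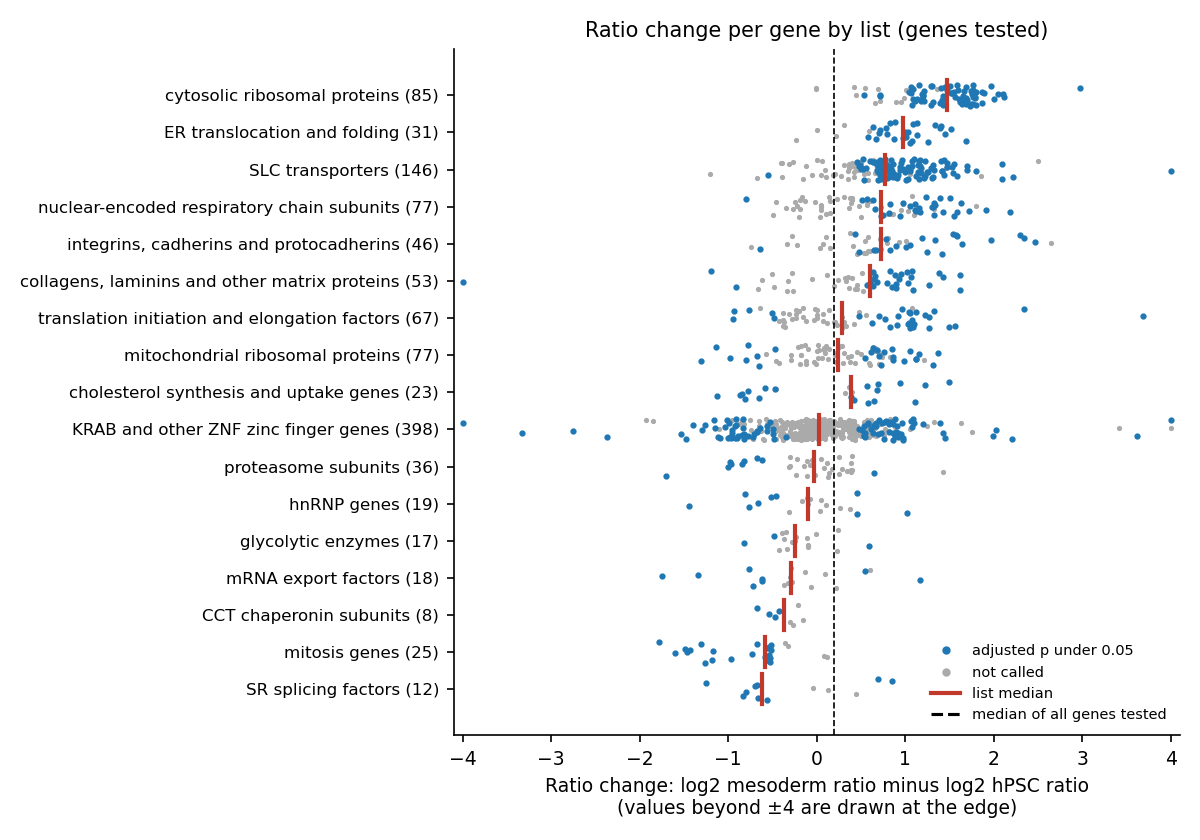
Ratio change of each tested gene (points, log2) in 17 gene lists, with the list median as a red bar and the median of all genes, 0.19, as a dashed line; values beyond ±4 are drawn at the edge. The medians of ribosomal protein, reticulum and transporter genes lie to the right of the dashed line, and those of mitosis and SR genes to the left.

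Genes that act in mitosis moved the other way. Of 25 tested, 21 were called lower in mesoderm, against a background of 12.1%, and the other 4 were not called. Their median ratio change was -0.58, which is 0.78 below that of all genes, and it lay 0.77 to 1.25 below it under the alternative fits of all libraries. Their median log2 ratio was -0.02 in mesoderm and 0.57 in hPSC.

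TTK, the kinase of the spindle checkpoint, had 44.74, 44.68 and 50.35 CPM in hPSC cytoplasm and 12.23, 10.99 and 9.158 in hPSC nucleus. The mesoderm values were 39.18, 35.31 and 37.8 CPM in cytoplasm and 29.8, 26.81 and 32.27 in nucleus. Mesoderm was lower in cytoplasm and higher in nucleus, with no overlap, and the ratio change was -1.78 ± 0.18 (SE). The kinetochore motor CENPE changed by -1.60, TOP2A, which untangles chromosomes, by -1.31, the spindle motor KIF11 by -1.18 and the cell cycle kinase CDK1 by -0.73. The cyclin CCNA2 was not called at 0.12. NUF2, a kinetochore protein among the genes with the largest falls, changed by -2.24, but its transcripts differed between the assemblies, with 1 in the hPSC table and 3 in the mesoderm table.

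Genes that process and export mRNA also leaned towards the nucleus. Among 12 SR splicing factors, which bind exons and help define them, 7 were lower and 2 higher, SRSF9 (0.69) and SRSF8, beside backgrounds of 12.1% and 26.0%, and the median was 0.81 below that of all genes. The fit of 24 libraries called 2 lower, and total counts alone 7 lower with SRSF9 and SRSF8 not called. SRSF7 had 855.6, 666.7 and 634.4 CPM in hPSC cytoplasm and 395.9, 322.3 and 330.2 in hPSC nucleus. In mesoderm it was lower in both fractions, at 157.3, 162.1 and 171.2 CPM in cytoplasm and 186.7, 219.3 and 162.8 in nucleus. Its ratio change was -1.25 ± 0.20 (SE), and that of SRSF2 was -0.80. Of 19 hnRNP genes, with a median 0.29 below that of all genes, 6 (31.6%) were lower, led by HNRNPDL at -1.44. Another 3 (15.8%) were higher, led by HNRNPA1 at 1.02, of which 1 was called without the mitochondrial genes. Scaled by total counts, 9 hnRNP genes were lower, and on the authors' TPM 14, with the rest not called. HNRNPA1 took -0.82 when only transcripts with an Ensembl ID in both tables were counted, so its direction depends on which isoforms enter.

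Of 18 mRNA export factors 6 (33.3%) were lower and 2 (11.1%) higher, beside backgrounds of 12.1% and 26.0%, with a median 0.49 below that of all genes. Without TMM factors 10 were lower and 1 higher, and on the authors' TPM 14 were lower. THOC1 and THOC2 belong to the THO complex, which loads export factors on new mRNA. THOC1 had 40.39, 40.13 and 38.24 CPM in hPSC cytoplasm and 27.85, 29.87 and 22.01 in hPSC nucleus, and 28.55, 30.74 and 29.05 CPM in mesoderm cytoplasm and 72.12, 65.71 and 61.11 in mesoderm nucleus. Its mRNA was thus on the cytoplasm side in hPSC and on the nucleus side in mesoderm, with a ratio change of -1.75 ± 0.17 (SE). THOC2 changed by -1.35, the export receptor XPO1 by -0.77, and NXT1, a partner of the mRNA exporter, by 1.17.

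Several sets of cytosolic housekeeping genes were close to the all-gene median or under it. Of 36 proteasome subunits, 8 (22.2%) were lower and 1 (2.78%) higher, beside backgrounds of 12.1% and 26.0%. Their median was 0.23 below that of all genes. PSMA3 had the largest fall at -1.70 ± 0.25 (SE), and PSMD14, a deubiquitinase of the lid, had -0.82. Without hPSC cytoplasm replicate 1, 8 subunits were higher, while with total counts alone 15 were lower and on the authors' TPM 27. Of the 8 CCT chaperonin subunits, with a median 0.56 below that of all genes, 4 (50%) were lower, among them CCT8 at -0.68. That number was 2 to 5 on leaving out single libraries and 8 with total counts alone. Of 17 glycolytic enzymes, with a median 0.44 below that of all genes, 2 (11.8%) were lower and 1 (5.88%) higher. With the mitochondrial genes left out 8 were lower, with total counts alone 11 and on the authors' TPM 14. Among 398 zinc finger genes 52 (13.1%) were higher and 45 (11.3%) lower, with a median of 0.03, which is 0.16 below that of all genes. With the mitochondrial genes left out 32 were higher and 66 lower, and with total counts alone 14 and 91. On the authors' TPM 1 was higher and 212 lower of 395, beside 343 and 6002 of 12154 over all genes.

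There were 332 genes called in both cell types and on opposite sides, against 6808 on the same side. CCNG1 (chr5:163437569-163446151), a cyclin induced by p53, had 336.9, 384.2 and 365.1 CPM in hPSC cytoplasm and 738.4, 676.3 and 645.2 in hPSC nucleus. In mesoderm it had 518.5, 524.2 and 516.8 CPM in cytoplasm and 211.7, 251.9 and 212.5 in nucleus. The order of the fractions was thus reversed, and the ratio change was 2.13 ± 0.16 (SE). The other named genes that crossed to the cytoplasm were PSENEN, a subunit of gamma-secretase, at 2.06, WAC-AS1 at 1.91, KIAA1143 at 1.82, MBD6 at 1.77 and the neuropeptide gene GAL at 1.76. WAC-AS1 was counted on 2 transcripts in hPSC and 4 in mesoderm, and MBD6 on 1 and 2.

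In the opposite direction stood LARP7 (chr4:112636964-112657592), a protein that binds and stabilises 7SK RNA. It had 41.54, 41.86 and 34.18 CPM in hPSC cytoplasm and 17, 16.13 and 14.54 in hPSC nucleus. In mesoderm it had 39.62, 54.6 and 43.92 CPM in cytoplasm and 133.4, 138.5 and 105.3 in nucleus, so that only the nucleus libraries differed between the cell types. The ratio change was -2.75 ± 0.20 (SE). The gene holds the microRNA cluster of MIR302A to MIR302D and MIR367 on the other strand, the strand of the counting is not stated, and with shared Ensembl transcripts alone the change was -1.26 and not called. PRPF39, a splicing factor, crossed to the nucleus by -1.81, MAP1A, a microtubule protein, by -1.63 and RAB30-DT by -2.18. Their transcripts also differed between the assemblies. PRPF39 was counted on 3 in hPSC and 6 in mesoderm, MAP1A on 2 and 1, and RAB30-DT on 2 and 6. RAB30-DT had a mean of 23 counts in hPSC nucleus.

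**Figure D4:**
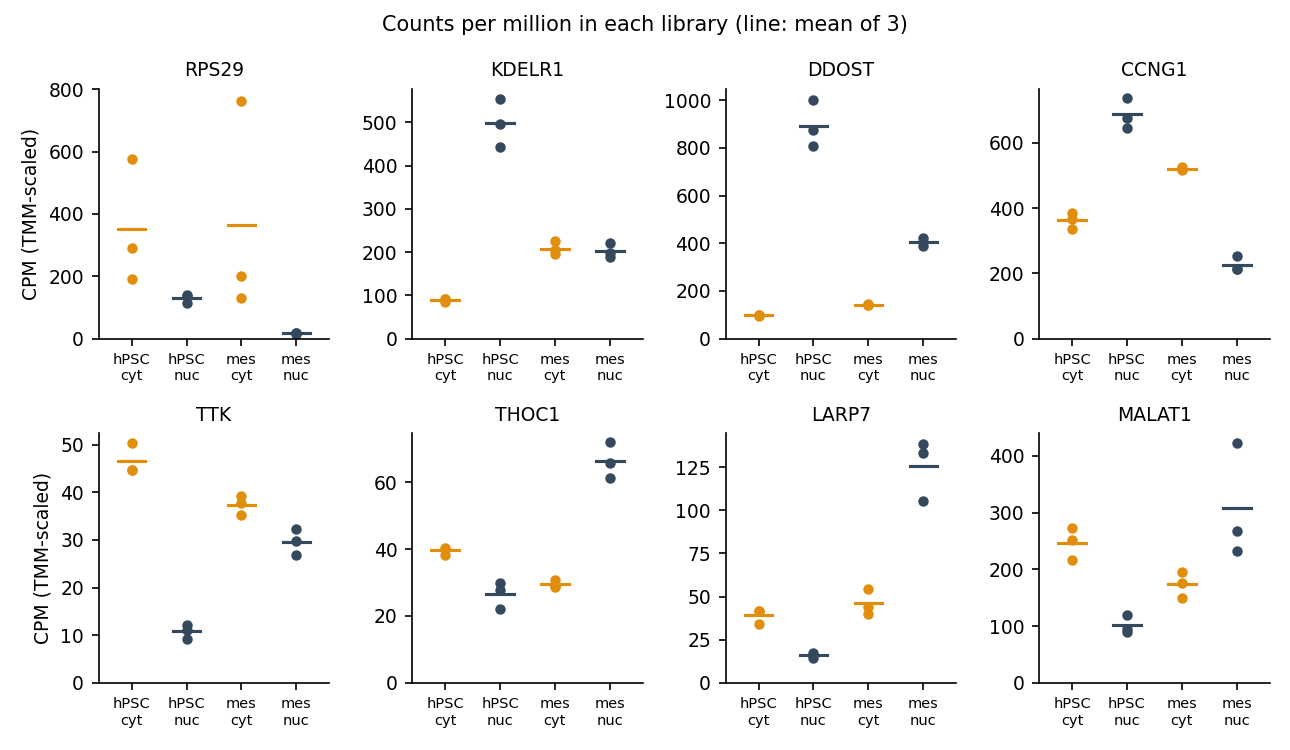
CPM in each of the 12 libraries for 8 genes, with points for libraries and lines for the mean of 3. CCNG1 is higher in nucleus in hPSC and in cytoplasm in mesoderm, and LARP7 the reverse.

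Of 5 nuclear control RNAs tested, 2 were called on the cytoplasm side in hPSC, MALAT1 and NEAT1, and 2 on the nucleus side, while 4 were on the nucleus side in mesoderm. The list's median log2 ratio was -0.62 in hPSC and -1.03 in mesoderm, and in the ratio change 2 were lower and 1 higher. Of 8 cytoplasmic control mRNAs, 8 were called on the cytoplasm side in hPSC and 7 in mesoderm, with medians of 1.00 and 1.58. In the ratio change 4 (50%) of these were higher and 0 lower, beside backgrounds of 26.0% and 12.1%. With total counts alone 3 were higher and 1 lower, and on the authors' TPM 1 and 4. MALAT1 (chr11:65497688-65506516), a noncoding RNA of nuclear speckles, had 252.2, 272.3 and 215.8 CPM in hPSC cytoplasm and 89.7, 118.6 and 95.12 in hPSC nucleus. Its mesoderm levels were 149.1, 175.5 and 195.2 CPM in cytoplasm and 232, 267.6 and 423.1 in nucleus. Its log2 ratio was 1.29 in hPSC and -0.83 in mesoderm, a ratio change of -2.12 ± 0.27 (SE). In the fit of 24 libraries the ratio change was -2.14 ± 0.74 (SE) and called, while the mesoderm ratio of -0.86 was not called. That fit gave MALAT1 a log2 ratio of -0.74 in endoderm, from which mesoderm did not differ by a call, and of 3.05 in ectoderm. NEAT1, the RNA of paraspeckles, changed by -2.23 ± 0.40 (SE) at a low level in hPSC, where it had 3.707, 4.042 and 2.682 CPM in cytoplasm. MALAT1 was counted on 1 transcript in hPSC and on 2 others in mesoderm, and no shared Ensembl transcript gave it a value.

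Noncoding RNAs moved in both directions. Of 616 long noncoding genes 126 (20.5%) were higher and 47 (7.63%) lower, with a median of 0.41, against 2984 (26.4%) and 1394 (12.4%) of 11286 protein-coding genes with a median of 0.18. Of 154 genes with antisense names 38 were higher and 7 lower, beside backgrounds of 26.0% and 12.1%, OIP5-AS1 being among the higher ones at 1.47. Their median was 0.21 above that of all genes. With total counts alone 20 were higher and 14 lower, and on the authors' TPM 7 and 39, so the direction of the split is not stable. Among 23 hosts of small nucleolar RNAs 7 (30.4%) were higher, led by SNHG29 at 1.92, and 2 (8.7%) lower, SNHG11 and SNHG1 (-0.97). These shares are near the same backgrounds, and the hosts' median was 0.17 above that of all genes. Scaled by total counts, 3 were higher and 5 lower, and on the authors' TPM 3 and 7. Of these hosts 12 were higher without hPSC cytoplasm replicate 1 and 4 without the mitochondrial genes, and the calls of the lower 2 were lost on leaving out hPSC nucleus replicate 1 or mesoderm nucleus replicate 1.

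Other large falls were those of RNAs that share their place or reads with a host. The falls of PILRB (-2.45), DANT2 (-2.25) and ANKRD36 (-2.08) were also among the largest. PILRB lies inside the gene STAG3L5P-PVRIG2P-PILRB on the same strand, and its call was lost in the fit of 24 libraries. PILRB was counted on 1 transcript in hPSC and 3 in mesoderm, DANT2 on 12 and 7, and ANKRD36 on 2 and 7. ANKRD36 had a mean of 14.67 counts in hPSC nucleus. SNORD116-4 (chr15:25059538-25059633) changed by -4.26 ± 0.31 (SE), and lies in SNHG14. Its counts came from 11 assembled transcripts in hPSC and 3 in mesoderm, so they are not those of a small RNA alone. MIR3198-2 (-3.30) lies in CBX5 and SNORA8 (-2.21) in TAF1D, and MIR3198-2 was not called by DESeq2. CRNDE (-2.54) was counted on 1 transcript in hPSC and 3 in mesoderm, and on shared transcripts it had -0.22.

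Medians of coding genes differed by transcript length. In the shortest of 5 equal classes of protein-coding genes (longest GENCODE transcript of 217 to 2017 bases), 712 (31.57%) were higher and 161 (7.14%) lower. The median there was 0.40, and 0.38 without the ribosomal protein genes. In the longest class, from 5767 bases, 436 (19.35%) were higher and 380 (16.87%) lower, with a median near 0. The classes between had medians of 0.24, 0.13 and 0.13.

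Genes of cell identity did not move as a block. Of the 12 pluripotency genes that both cell types list, 3 (25%) were higher and 3 (25%) lower, beside backgrounds of 26.0% and 12.1%. POU5F1 had 3812, 2902 and 2691 CPM in hPSC cytoplasm and 893, 822.1 and 975.1 in mesoderm cytoplasm, and 1632, 964.8 and 1208 in hPSC nucleus and 296.2, 388.1 and 324.2 in mesoderm nucleus. Both fractions were lower in mesoderm, and the ratio change of 0.11 ± 0.27 (SE) was not called. L1TD1, an RNA-binding protein of pluripotent cells, changed by -1.51 ± 0.16 (SE), the methyltransferase DNMT3B by -0.69 and the let-7 regulator LIN28A by 1.43. Of 6 mesoderm regulators in both tables PDGFRA was called, at -2.01, and its 1.917, 1.877 and 2.063 CPM in hPSC cytoplasm make it a low-level gene. PDGFRA was counted on 1 transcript in hPSC and 5 in mesoderm. Of the markers of other cell types, NES, the intermediate filament of neural progenitors, changed by -2.08 and GABRP, an amnion marker, by 1.48. Among 20 immediate early and MYC family genes 3 (15%) were higher and 4 (20%) lower, beside the same backgrounds. Their median was 0.21 below that of all genes, and JUN had the largest fall at -1.21. With total counts alone 0 were higher and 6 lower, and on the authors' TPM 0 and 12 of 19.

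Set against the other lineages, the mesoderm ratio differed from endoderm in 5958 of 10681 genes (55.8%) and from ectoderm in 6266 (58.7%). These contrasts share the mesoderm libraries with the ratio change against hPSC, so their values are given side by side without a measure of likeness. The splits depend on scaling here too. Against endoderm 61.2% of calls were higher with TMM factors, 13.0% with total counts alone and 1.80% on the authors' TPM, and against ectoderm 51.8%, 31.8% and 8.02%. Total counts shifted the all-gene median by -0.84 against endoderm and by -0.44 against ectoderm, so the directions below are those of the TMM fit. For ribosomal protein genes the median was 1.89 against endoderm and 3.06 against ectoderm, and 76 and 83 of 85 were higher (backgrounds 34.1% and 30.4%). For mitochondrial mRNAs it was 8.66 and 6.19, with 13 of 13 higher in each. For mitosis genes it was -1.23 and -1.31, with 17 and 14 of 25 lower (backgrounds 21.7% and 28.3%). The control lists were reversed in ectoderm, where the median log2 ratio was -0.43 for cytoplasmic control mRNAs and 0.74 for nuclear control RNAs. In endoderm these medians were 0.72 and -0.61. Cytoplasmic controls were higher in mesoderm in 4 of 8 genes against endoderm and in 8 of 8 against ectoderm. How well the ectoderm fractions were separated was not tested.

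The membrane and matrix lists differed by partner. The backgrounds over all genes were 34.1% higher and 21.7% lower against endoderm, and 30.4% and 28.3% against ectoderm. Reticulum machinery was higher in 20 and lower in 2 of 31 genes against endoderm, and higher in 9 and lower in 11 against ectoderm. Integrins and cadherins were higher in 19 and lower in 3 of 37 against endoderm, and 16 were lower against ectoderm, with medians of 1.13 and -0.71. Matrix genes were higher in 34 of 44 against endoderm and lower in 36 against ectoderm, with medians of 1.36 and -1.13. These directions were not tested under the other scalings, whose shifts are of similar size.

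**Figure D5:**
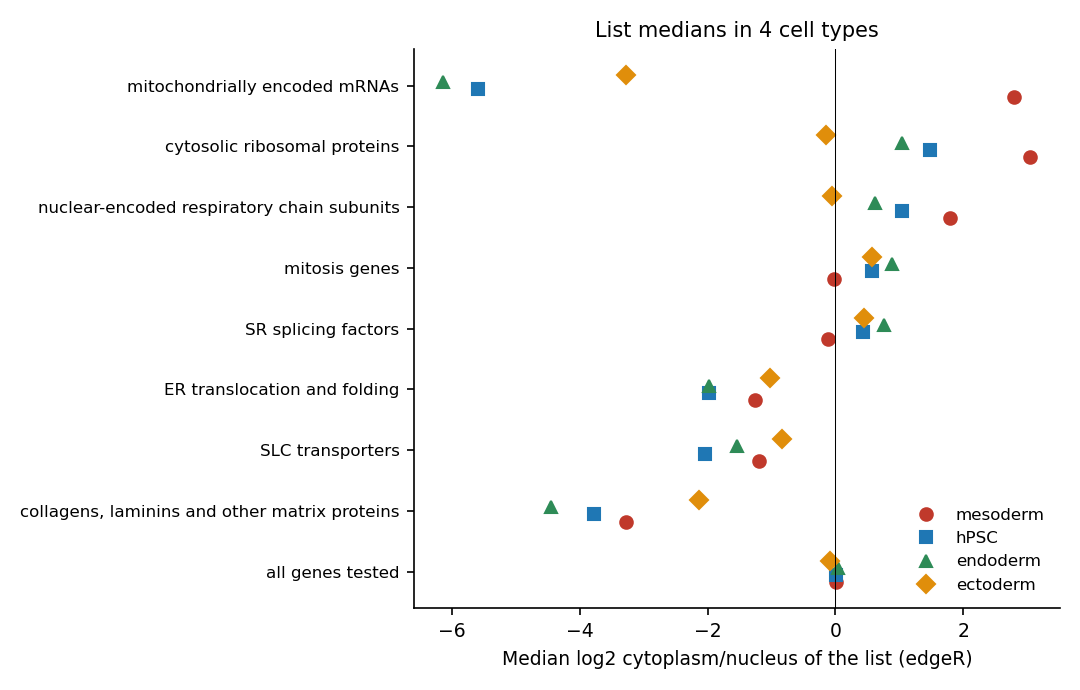
Median log2 cytoplasm/nucleus ratio of 8 gene lists and of all genes tested in the 4 cell types; hPSC and mesoderm values come from the fit of 12 libraries, endoderm and ectoderm values from the fit of 24. Mesoderm stands apart for mitochondrial mRNAs at 2.79 and is highest for ribosomal proteins at 3.05.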

How the data were processed

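Counts per assembled transcript were deposited by the authors in 1 table per cell type, each on its own transcript assembly, beside tables of the authors' TPM. The submitters' processing notes name STAR, RSEM and the build hg38, with no role or order; how reads were shared between isoforms is not given in the sources used here, so the whole-number counts may be rounded estimates. Columns coded Nei were read as nucleus libraries. There was 1 column that matched no sample, and it was not used.

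Counts were summed per Ensembl gene and fitted in edgeR 4.0.16 under R 4.3.3, with TMM scaling, genes kept by filterByExpr at a count of at least 10, 4 group means and a two-sided quasi-likelihood F test of the difference of 2 log2 ratios, with Benjamini-Hochberg adjustment over all genes and a threshold of 0.05. CPM are TMM-scaled, except marker sums, which are scaled to the library total only. The SE of a log2 change comes from the change and its F statistic. Endoderm and ectoderm entered a fit of 24 libraries over 10681 genes. Alternatives used DESeq2 1.42.0, limma 3.58.1 on log2 of TPM plus 1 or 0.1, other scalings and filters, shared transcripts and left-out libraries. The fit was tested on simulated counts with 200 of 12275 genes changed. It recovered 63% of the changes of 1 on the log2 scale and 92% of those of 2. Of the calls 7.74% were false, and unchanged genes had a median fitted value of -0.13.

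A gene list of a family or pathway is described by its calls and its median beside those of all genes. Outside the lists, genes are named if called, outside mitochondrial DNA, at 10 CPM or more on average, above 3 counts in each group and without overlap between the 9 library ratios of each cell type: the 12 largest in each direction, and 6 in each direction that crossed sides. Members and lists were chosen with earlier results of these data known. Positions are from GENCODE release 29.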

Additional observations from a re-analysis of the deposited data

Results flagged for a closer look

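The cytoplasm-nucleus ratio differed between cell types by the test of the difference itself in 4684 genes for mesoderm against hPSC, in 5958 genes for mesoderm against endoderm and in 6266 genes for mesoderm against ectoderm. Against hPSC, 332 genes called in both cell types lay on opposite sides, and each of them was also called in the ratio change. The 13 mitochondrially encoded mRNAs were all among the genes higher in mesoderm. The cause was not tested for any of these.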

How the results depend on the processing

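The count of genes called in the ratio change was 3015 when only transcripts with an Ensembl ID in both tables were summed (9824 genes tested), 1747 with a change of at least 2-fold required and 2734 in the fit of 24 libraries (10681 genes tested). The 2-fold requirement left 4863 genes for mesoderm cytoplasm against nucleus, 4293 for hPSC, 3653 for mesoderm against endoderm and 4089 for mesoderm against ectoderm, and shared transcripts left 3670 and 3890 for the last 2. On leaving out single libraries the counts ran from 3939 to 5615 for the ratio change, from 8551 to 9524 in mesoderm, from 7973 to 8639 in hPSC, from 5280 to 6205 against endoderm and from 5623 to 6290 against ectoderm.

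Directions turned on the authors' TPM plus 1, with and without a filter, for SRSF9 (-0.159), ITGB1 (-0.836), CCNA2 (-0.704) and POU5F1 (-0.742). With TPM plus 0.1 they were -0.16, -0.805, -0.718 and -0.742. Over all genes the median shift from the main fit was -0.809 with TPM plus 1 and -0.826 with TPM plus 0.1. ITGB1, CCNA2 and POU5F1 were not called in the main fit. HNRNPA1 turned to -0.819 on shared transcripts, and RPS26, not called, ran from -0.222 to 0.512 on leaving out single libraries. The cause was not tested. Of 93 genes examined by name and called, 17 lost their call on the authors' TPM plus 1 and 3 with total counts alone.

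Replicate numbers are shared between fractions in the labels. With the number as a replicate block, 5017 genes were called, against 4684 without it. Same-numbered cytoplasm and nucleus libraries had deviations with r of 0.243, 0.14 and 0.0547 in hPSC and 0.259, 0.18 and -0.114 in mesoderm. For libraries of unlike number r ran from -0.221 to 0.191 in hPSC and from -0.283 to 0.119 in mesoderm. With 3 numbers per cell type, these values do not settle whether same-numbered libraries are paired.

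Many named genes were counted on unlike numbers of transcripts in hPSC and mesoderm, such as THOC2 on 2 and 7. Each cell type has its own assembly and its own fractionation, so these cannot be told apart from the cell type. Less mitochondrial or reticulum material in a pellet and a move of single mRNAs cannot be told apart either. Counts come from 3 libraries a group, which limits the precision for low genes.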
